A study of Rattus norvegicus with 10 samples.

Results

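The interferon response genes described here are a list of 9 rat genes: the transcription factors Irf1 and Irf7, the antiviral effectors Isg15, Mx1, Mx2, Oas1a, Ifit2 and Ifit3, and the GTPase gene Gbp2. They were found on the array by their gene symbol, through the transcript identifier of each probe and the RefSeq annotation. All 9 had a probe, and 7 of them were among the 16779 genes tested. Mx1 and Ifit3 were left out by the filter on dim probes, which required a signal well above background on 5 or more of the 10 arrays.

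The series asked whether the diet of rat dams changes gene expression in the mammary tumours of their female offspring. The WD group held 5 tumours from daughters of Sprague-Dawley dams that ate a Western-style diet, rich in fat and poor in fibre and trace elements. The CD group held 5 tumours from daughters of Sprague-Dawley dams that ate a control diet. The dams' diets ran from gestational day 12 to day 20 and from postnatal day 1 to day 21. After weaning the daughters of both groups ate the control diet. All of them, CD animals included, were given 1 intraperitoneal dose of 50 mg/kg N-methyl-N-nitrosourea, an alkylating carcinogen that induces mammary tumours in rats, at 3 weeks of age. The tubular or papillary tumours were measured at 110 days of age, with 1 array per tumour. Dams and litters are not named in the labels, so p-values measure only the spread between these tumours.

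The 75th percentile of the spot signal was 112, 81.0, 72.8, 98.6 and 170 in WD arrays 1 to 5. In CD arrays 1 to 5 it was 188, 204, 85.0, 190 and 226. All CD arrays except CD3 were thus brighter than every WD array, so brightness and diet cannot be fully told apart. WD3 was the dimmest array and CD5 the brightest. The number of probes well above background ranged from 16685 to 21905 over the arrays, and 0 spots were saturated. All 10 mammary epithelial marker genes on the array were kept by the filter, and their mean level lay between 3.65 and 4.34 in WD tumours and between 3.99 and 4.69 in CD tumours. Every level below is a log2 signal minus the 75th percentile of its own array, so that 0 is the 75th percentile. Levels of different genes come from different probes and are not set against each other.

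Interferons are secreted proteins that cells release when they sense foreign or misplaced nucleic acid, or, for interferon gamma, that activated T and NK cells release. Type I interferons act through the JAK-STAT pathway on the interferon-stimulated response element (ISRE) in the promoters of antiviral genes. Interferon gamma acts mainly through the gamma-activated site (GAS), and one of the genes so induced, Irf1, encodes a factor that binds response elements of the ISRE type. In tumours these genes are read as a trace of interferon exposure of tumour cells and of the immune cells around them.

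RefSeq promoters on the GRCr8 assembly, from 250 bases before to 50 bases after the start site, were matched for 6 of the 9 genes: Irf1, Irf7, Mx1, Oas1a, Ifit3 and Gbp2. They are shown for 4 measured genes because these binding elements are what the interferon pathway is known to act on. Both strands were searched for the ISRE core GAAANNGAAA and for the GAS motif TTCNNNGAA. Capitals mark the ISRE core (as its reverse complement in Irf7 and Gbp2, and as a pair of overlapping matches in Oas1a) and, in Irf1, the GAS motif. The windows are chr1:205799974-205800273 on the minus strand for Irf7, chr12:41330216-41330515 on the plus strand for Oas1a, chr2:234005477-234005776 on the plus strand for Gbp2 and chr10:38417685-38417984 on the plus strand for Irf1.
Irf7: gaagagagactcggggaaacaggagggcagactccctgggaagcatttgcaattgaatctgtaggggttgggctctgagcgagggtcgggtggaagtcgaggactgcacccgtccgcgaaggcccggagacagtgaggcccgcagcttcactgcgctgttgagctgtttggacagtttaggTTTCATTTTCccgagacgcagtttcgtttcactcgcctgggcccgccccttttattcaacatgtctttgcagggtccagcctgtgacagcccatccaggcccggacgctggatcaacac
Oas1a: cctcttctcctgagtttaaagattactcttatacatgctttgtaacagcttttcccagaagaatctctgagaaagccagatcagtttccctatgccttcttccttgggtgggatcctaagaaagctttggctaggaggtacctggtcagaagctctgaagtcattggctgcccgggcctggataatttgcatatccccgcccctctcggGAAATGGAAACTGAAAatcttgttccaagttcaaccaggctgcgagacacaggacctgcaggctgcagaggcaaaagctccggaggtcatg
Gbp2: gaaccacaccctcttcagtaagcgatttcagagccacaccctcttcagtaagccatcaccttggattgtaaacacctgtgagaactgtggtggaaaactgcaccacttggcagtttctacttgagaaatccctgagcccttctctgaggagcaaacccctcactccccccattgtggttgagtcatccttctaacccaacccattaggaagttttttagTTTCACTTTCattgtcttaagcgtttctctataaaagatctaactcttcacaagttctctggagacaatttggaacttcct
Irf1: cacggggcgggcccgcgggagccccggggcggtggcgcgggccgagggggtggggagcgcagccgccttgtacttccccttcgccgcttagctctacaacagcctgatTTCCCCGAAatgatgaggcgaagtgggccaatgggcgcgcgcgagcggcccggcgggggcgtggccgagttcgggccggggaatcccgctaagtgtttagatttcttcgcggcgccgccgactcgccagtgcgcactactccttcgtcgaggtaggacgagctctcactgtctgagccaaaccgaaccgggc
Across the 6 promoters the ISRE core was found in 4, in Irf7 from base -69 relative to the start site, in Oas1a from bases -41 and -35, in Gbp2 from base -31 and in Ifit3 from base -44. The GAS motif was found in 2, in Irf1 from base -142 and in Oas1a from base -199. Neither motif was found in the Mx1 window. Of 33469 rat promoters of the same length, 3.92% held the ISRE core and 8.87% held the GAS motif. A match is a run of letters and was not tested as a binding site.

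In the comparison of WD with CD tumours, 6 of the 7 measured interferon response genes had a higher mean in WD and 1, Irf1, a lower mean. None of the 7 passed limma's test (Benjamini-Hochberg adjusted p under 0.05 over all 16779 genes), and 0% of all genes passed it. At an unadjusted p under 0.05 the fit held 0 of the 7 genes, against 15.5% of all genes tested (1308 higher and 1295 lower). Of all genes, 51.4% had a higher mean in WD. The median difference was 0.37 over the 7 genes and 0.01 over all genes, and it was 0.07 over the 7 genes without WD3, when 4 of the 7 had a higher mean in WD. The WD and CD values overlapped in all 7 genes, whereas they did not overlap in 3.65% of all genes. In bulk tumours, fewer cells of a type and less RNA per cell cannot be told apart.

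Irf1 encodes the transcription factor IRF1, which is induced by interferon gamma and binds the promoters of MHC class I and other immune genes. Its probe (A_44_P306602, NCBI Gene 24508) read -0.66, -1.54, -2.14, -1.31 and -0.86 in WD tumours 1 to 5, against -1.65, 0.05, -0.59, -0.93 and -1.02 in CD tumours 1 to 5. The highest value was that of CD2 and the lowest that of WD3, and the groups overlapped. Irf1 averaged -1.30 ± 0.58 in WD and -0.83 ± 0.62 in CD (SD, n = 5 each), a difference of -0.47 (SE 0.34, 1.39-fold lower, limma adjusted p = 0.515), with 4 of 5 WD tumours below the CD mean. The probe was well above background in 3 of 5 WD arrays and in all 5 CD arrays, and WD2 and WD3 were the 2 arrays where it was not. Within slides 1, 2 and 3 the difference was -1.15, -0.92 and 0.44, so it did not hold in 1 of the 3. For this and every gene below, slide 1 held 1 CD tumour, CD2, and slide 3 held 1 WD tumour, WD5. The Irf1 difference was -0.27 without WD3, -0.25 without CD2, -0.25 with array brightness as a covariate, -0.25 with the series matrix and -0.17 with the normexp background correction.

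Irf7 encodes IRF7, which drives the amplification of type I interferon production and is itself induced by interferon. Its probe (A_44_P1039994, NCBI Gene 293624) read 3.49, 2.16, 4.10, 2.62 and 3.01 in WD tumours, against 2.69, 3.69, 2.37, 3.02 and 2.50 in CD tumours. WD3 was highest, CD2 came next, and WD2 was lowest, so the extremes of all 10 tumours lay within the WD group. The means were 3.08 ± 0.75 in WD and 2.85 ± 0.53 in CD (SD, n = 5 each), a difference of 0.22 (SE 0.36, 1.17-fold, limma adjusted p = 0.790), with 3 of 5 WD tumours above the CD mean. The difference was -0.03 without WD3, 0.45 without WD2 and 0.35 with array brightness as a covariate, and within slides 1, 2 and 3 it was -0.86, 0.92 and 0.16, with the opposite sign on slide 1.

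Isg15 encodes a ubiquitin-like protein that is joined to other proteins after interferon exposure and is also secreted. Its probe (A_44_P1013314, NCBI Gene 298693) read 3.16, 2.16, 4.34, 3.04 and 2.91 in WD tumours, against 2.44, 3.14, 2.92, 2.74 and 2.50 in CD tumours. WD3 stood at the top and WD2 at the bottom, and the other 8 tumours lay between them without separating by group. The means were 3.12 ± 0.78 in WD and 2.75 ± 0.29 in CD (SD, n = 5 each), a difference of 0.37 (SE 0.33, 1.29-fold, limma adjusted p = 0.607), with 4 of 5 WD tumours above the CD mean. The difference was 0.07 without WD3, 0.61 without WD2 and 0.16 with array brightness as a covariate, and the values within slides 1, 2 and 3 were -0.48, 0.98 and 0.32, again with the opposite sign on slide 1.

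Mx2 belongs to the dynamin-like GTPases that block virus replication. Its probe (A_44_P214846, NCBI Gene 286918) read 0.01, -1.46, 0.53, -1.21 and -0.69 in WD tumours, against -0.97, -1.50, -0.83, -0.70 and -2.54 in CD tumours. WD1 and WD3 were above every CD tumour, and CD5 was the lowest of all 10. The means were -0.56 ± 0.83 in WD and -1.31 ± 0.75 in CD (SD, n = 5 each), a difference of 0.75 (SE 0.44, 1.68-fold, limma adjusted p = 0.425), with 4 of 5 WD tumours above the CD mean. The SD of Mx2 over the 10 tumours was larger than that of 92.9% of the genes tested. Within slides 1, 2 and 3 the difference was 0.78, 1.35 and 0.15. It was 0.47 without WD3, 0.44 without CD5, 0.38 with array brightness as a covariate, and 0.23 with the normexp background correction or the series matrix.

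Oas1a encodes a 2′,5′-oligoadenylate synthetase, which senses double-stranded RNA and activates RNase L. Its probe (A_42_P729340, NCBI Gene 192281) read 3.61, 3.40, 4.65, 3.66 and 3.90 in WD tumours, against 3.26, 4.12, 3.49, 3.63 and 3.85 in CD tumours. WD3 was again highest, followed by CD2, and the other 4 WD tumours lay inside the CD range. The means were 3.84 ± 0.48 in WD and 3.67 ± 0.33 in CD (SD, n = 5 each), a difference of 0.18 (SE 0.25, 1.13-fold, limma adjusted p = 0.755), with 2 of 5 WD tumours above the CD mean. The difference was -0.02 without WD3, 0.07 without CD1, 0.29 without WD2 and 0.29 without CD2. Within slides 1, 2 and 3 it was -0.61, 0.48 and 0.46. Slide 1 again ran the other way, with CD2 as its only CD tumour, as for Irf7 and Isg15.

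Ifit2 encodes one of the tetratricopeptide proteins that restrict translation of viral RNA. Its kept probe (A_44_P696994, NCBI Gene 294091) read -1.09, -1.55, -0.26, -0.80 and -1.48 in WD tumours, against -1.58, -1.58, -1.20, -1.26 and -1.96 in CD tumours. WD1, WD3 and WD4 were above every CD tumour, while WD2 and WD5 lay within the CD range. The means were -1.04 ± 0.53 in WD and -1.52 ± 0.30 in CD (SD, n = 5 each), a difference of 0.48 (SE 0.25, 1.39-fold, limma adjusted p = 0.385), with 4 of 5 WD tumours above the CD mean. This probe was well above background in 4 of 5 WD arrays and all 5 CD arrays. The difference was 0.29 without WD3, 0.13 with array brightness as a covariate, 0.07 with the normexp background correction and 0.03 with the series matrix. Within slides 1, 2 and 3 it was 0.26, 1.05 and -0.06, so it did not hold on slide 3. The other Ifit2 probe (A_44_P410016) was well above background on 1 array, a CD one, and was left out.

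Gbp2 encodes a guanylate-binding protein that is induced chiefly by interferon gamma and acts against intracellular microbes. Its probe (A_44_P1053321, NCBI Gene 171164) read 4.02, 2.98, 3.78, 3.75 and 3.58 in WD tumours, against 2.87, 3.48, 3.74, 2.64 and 2.55 in CD tumours. WD1 was highest, WD3 and WD4 followed just above CD3, and CD1, CD4 and CD5 were the lowest. The means were 3.62 ± 0.39 in WD and 3.06 ± 0.53 in CD (SD, n = 5 each), a difference of 0.56 (SE 0.27, 1.48-fold, limma adjusted p = 0.342, unadjusted p = 0.0612), with 4 of 5 WD tumours above the CD mean. Within slides 1, 2 and 3 the difference was 0.01, 0.62 and 0.82. It was 0.52 without WD3, and 0.32 with array brightness as a covariate.

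**Figure D1:**
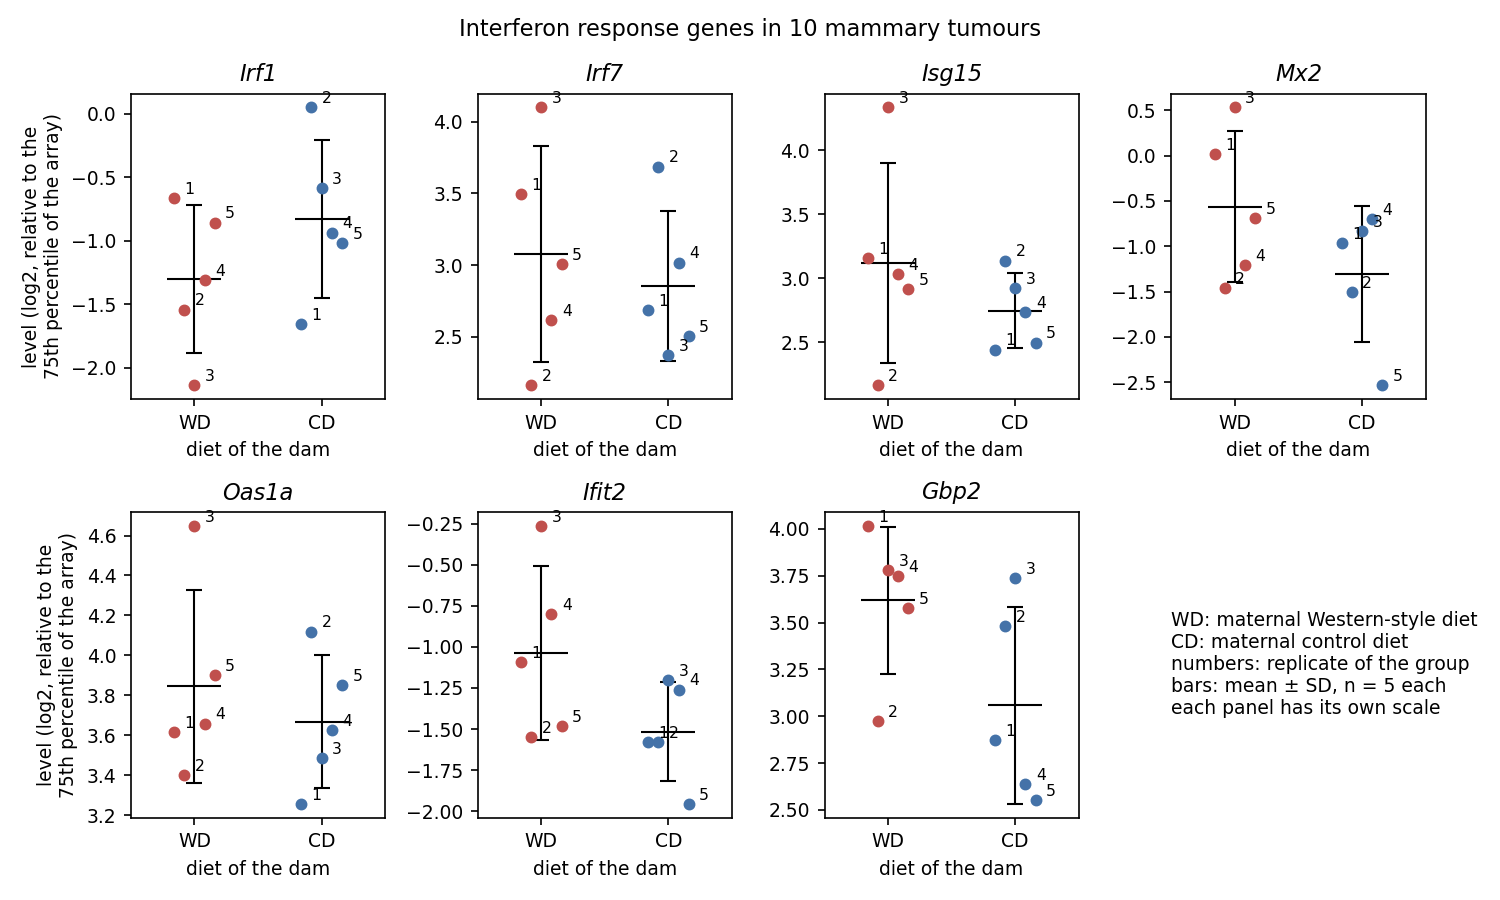
Level of each of the 7 measured interferon response genes (vertical axis, log2 relative to the 75th percentile of the array, each panel on its own scale) in the 5 WD and 5 CD tumours, with each tumour's replicate number and the mean ± SD of the group. WD3 is the highest point of the Irf7, Isg15, Mx2, Oas1a and Ifit2 panels and the lowest of the Irf1 panel, and in every panel the groups overlap.

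Mx1 and Ifit3 could not be compared. The Mx1 probe (A_44_P328136, NCBI Gene 24575), for the other Mx GTPase, was well above background in 0 of 5 WD arrays and in 1 CD array, CD4. The Ifit3 probe (A_44_P283726, NCBI Gene 309526), for a partner protein of the Ifit family, was well above background in WD4 alone. Ifit3 read -4.92, -4.10, -3.96, -0.92 and -5.09 in WD tumours 1 to 5, against -4.78, -5.33, -3.90, -5.29 and -5.31 in CD tumours. WD4 thus stood far above the other 9 tumours in Ifit3, whereas it was not the highest tumour in any of the 7 measured genes. No fold is given for either gene, since each probe was well above background on only 1 array and both groups were dim.

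**Figure D2:**
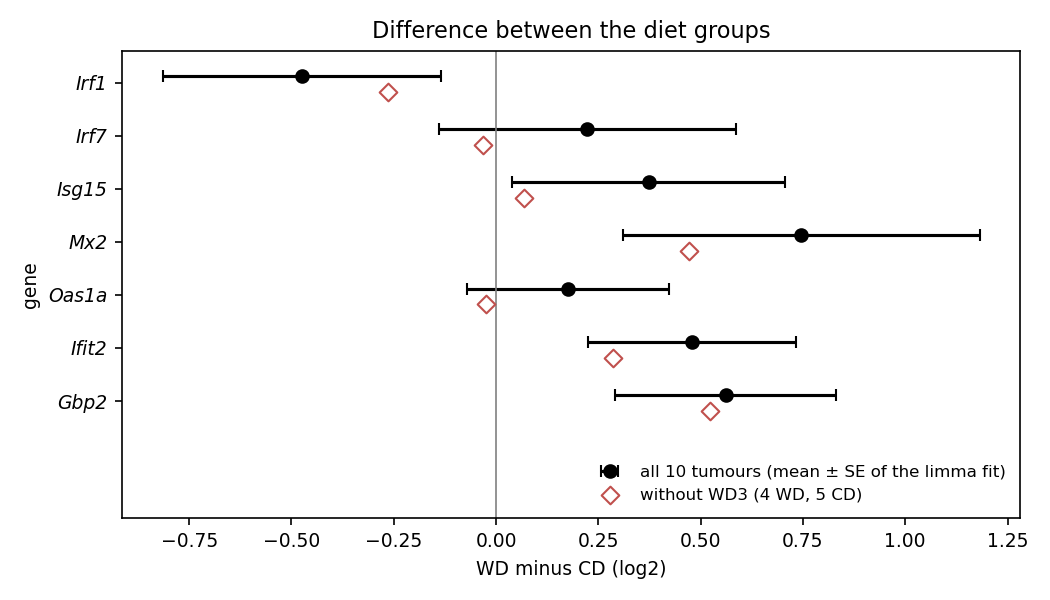
Difference in log2 level, WD minus CD, for the 7 measured genes in all 10 tumours (filled circles, bars 1 SE of the limma fit) and without WD3 (open diamonds). Irf7 moves to -0.03 and Oas1a to -0.02 without WD3, while Gbp2 moves only from 0.56 to 0.52.

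Over the 10 tumours the level of a measured interferon response gene spanned 1.39 (Oas1a) to 3.07 (Mx2) on the log2 scale, and 1 tumour, WD3, stood out in most of the genes. WD3 was the highest of the 10 tumours in 5 of the 7 genes (Irf7, Isg15, Mx2, Oas1a and Ifit2) and the lowest in Irf1. Over all genes, 14.5% were highest in WD3. WD3 was singled out after its values were seen, so this count is a description. The count and the folds that follow are values of the main processing, and WD3 was the dimmest array. With the normexp background correction Isg15 had r = 0.04 with Mx2 and -0.24 with Ifit2, and the highest tumour was not read there. Relative to the median of the other 9 tumours, WD3 read 2.66-fold higher for Irf7, 2.68-fold higher for Isg15, 2.83-fold higher for Mx2, 2.03-fold higher for Oas1a and 2.33-fold higher for Ifit2. The lowest tumour was CD5 in Mx2, Ifit2 and Gbp2, WD2 in Irf7 and Isg15, and CD1 in Oas1a.

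Each gene was also centred and scaled to its own SD over the 10 tumours, and the 7 genes were averaged in each tumour. This average was 0.62, -0.88, 1.34, 0.06 and 0.15 in WD tumours 1 to 5, against -0.72, 0.45, 0.02, -0.20 and -0.85 in CD tumours 1 to 5. The highest (WD3) and the lowest (WD2) tumour both belonged to the WD group, and CD5 and CD1 were nearly as low as WD2. Isg15 followed the average most closely (r = 0.95), and Irf1 did not follow it (r = 0.03), although each gene is itself part of the average.

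**Figure D3:**
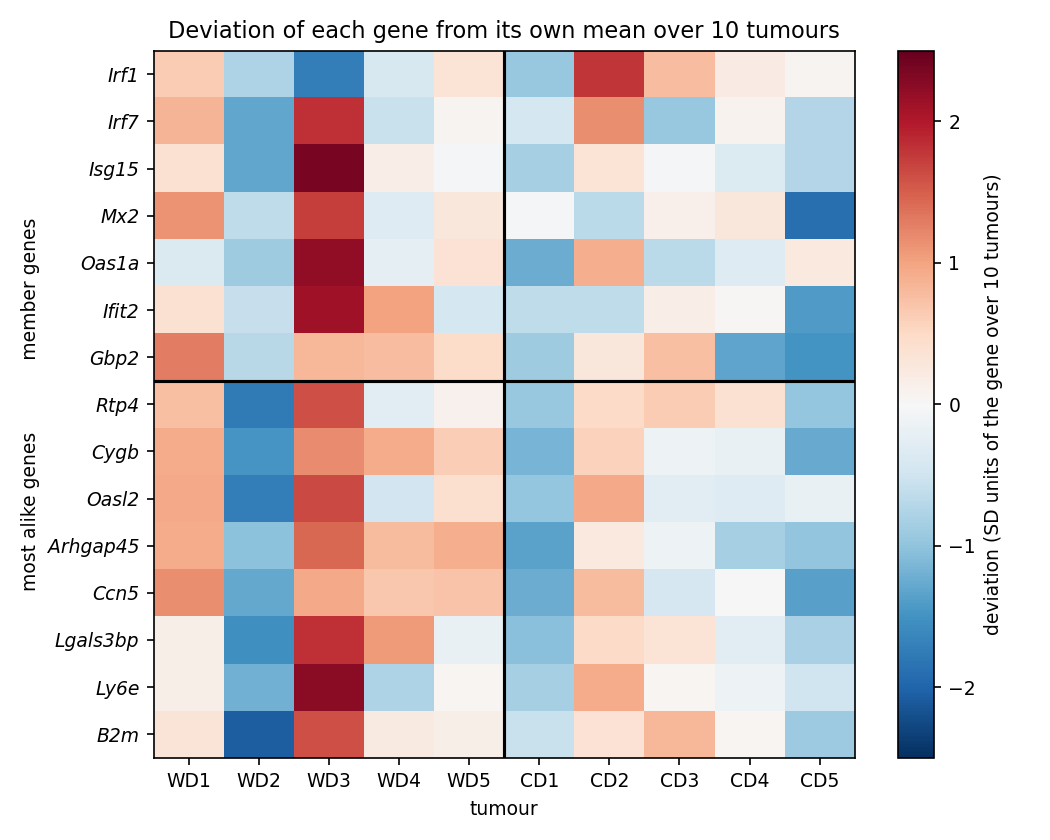
Deviation of each gene (rows) from its own mean over the 10 tumours, in SD units of the gene (colour), for WD1 to WD5 left of the line and CD1 to CD5 right of it. The upper 7 rows are the measured interferon response genes and the lower 8 rows are the genes whose pattern is most like their average. WD3 is the darkest red column except in Irf1, Gbp2 and Ccn5, and WD2 is blue in all 15 rows.

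Among the 7 genes there are 21 pairs, and 17 of them correlated positively across the 10 tumours. In 5 pairs Pearson's r passed a two-sided permutation test (100000 resamples, Benjamini-Hochberg adjusted p under 0.05 over the 21 pairs), and in 0 pairs did Spearman's rho. Irf7 and Isg15 had r = 0.84 (adjusted permutation p = 0.0267, rho = 0.72, adjusted permutation p = 0.116). Isg15 with Oas1a had r = 0.84 and rho = 0.61, Irf7 with Oas1a had r = 0.79 and rho = 0.62, Isg15 with Ifit2 had r = 0.83 and rho = 0.71, and Mx2 with Ifit2 had r = 0.80 and rho = 0.71 (adjusted permutation p = 0.0315 for each r). These are the factor IRF7 and 4 of the antiviral effectors. The processing changed several of these relations. With the normexp background correction 7 pairs passed, but Isg15 with Ifit2 had r = -0.24, Irf7 with Ifit2 had -0.39 instead of 0.53, and Ifit2 with Gbp2 had -0.43 instead of 0.64. Gbp2 then passed with Irf7 (0.77), Isg15 (0.85) and Oas1a (0.75). Under normexp Mx2 kept r = 0.81 with Ifit2. Its r was 0.04 with Isg15 instead of 0.71, and -0.10 with Irf7 instead of 0.63. It was -0.20 with Gbp2 instead of 0.62, and -0.24 with Oas1a instead of 0.33. With the series matrix Isg15 with Oas1a had r = 0.72 and did not pass, while Isg15 with Mx2 passed at 0.83.

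The 5 relations rested in part on WD3 and on a few other tumours. Without WD3, r was 0.72 for Irf7 with Isg15, 0.60 for Irf7 with Oas1a, 0.54 for Isg15 with Oas1a, 0.56 for Isg15 with Ifit2 and 0.65 for Mx2 with Ifit2, and 0 of the 21 pairs passed the test. Without the 2 tumours farthest from the median of the gene named first, r was 0.66, 0.32, 0.43, 0.61 and 0.35 in the same order, and each of these omissions included WD3. Of the 21 pairs, 0 also passed without WD2, 1 without CD1 or without CD3, 2 without CD2 and 3 without CD5. With each group's mean subtracted from its tumours, r was 0.84, 0.78, 0.83, 0.82 and 0.74. The 3 slides held 3, 4 and 3 arrays, too few for a correlation within a slide.

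For each member, the 16762 other genes were ranked by r. For Isg15, Irf7 ranked 52, Oas1a 53 and Ifit2 59. For Irf7, Isg15 ranked 32 and Oas1a 59, and for Mx2, Ifit2 ranked 40. Other pairs ranked lower: for Mx2, Oas1a ranked 2679, and for Gbp2, Irf7 ranked 2241 and Oas1a 3743. Isg15 ranked 740 for Gbp2, with a higher r than 95.6% of the genes. Irf1 had r between -0.45 (Ifit2) and 0.14 (Gbp2) with the other 6, and the nearest of them, Gbp2, was at rank 5924. Without WD3, where Irf1 was lowest and not well above background, its r was 0.70 with Irf7, 0.73 with Isg15 and 0.74 with Oas1a. The adjusted permutation p was 0.1475 for each of these. With Gbp2, Mx2 and Ifit2 the r of Irf1 without WD3 was 0.42, 0.11 and 0.0081. WD2, where Irf1 was not well above background either, was kept in. Gbp2 correlated with Isg15 at r = 0.65 and with Ifit2 at r = 0.64 (adjusted permutation p = 0.0847 and 0.102), and without WD3 at 0.77 and 0.67. By rho, Gbp2 had 0.81 with Isg15 and 0.83 with Ifit2, the highest values of the 21 pairs (adjusted permutation p = 0.0750 for each).

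The 8 named genes outside the members whose pattern over the 10 tumours was most like the average of the 7 were Rtp4 (r = 0.92), Cygb (0.92), Oasl2 (0.90), Arhgap45 (0.89), Ccn5 (0.89), Lgals3bp (0.89), Ly6e (0.89) and B2m (0.88). Rtp4, Oasl2, Lgals3bp and Ly6e are known as interferon-induced genes, and B2m encodes the light chain of MHC class I molecules. Cygb encodes the oxygen-binding protein cytoglobin, and Ccn5 a secreted matrix-associated protein. Without WD3 their r with the average was 0.89, 0.94, 0.84, 0.87, 0.95, 0.81, 0.78 and 0.81 in the same order. WD3 was highest in 7 of the 8, and WD1 was highest in Ccn5.

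Rtp4 read 3.35, 2.25, 3.73, 2.90 and 3.08 in WD tumours 1 to 5, against 2.61, 3.24, 3.30, 3.19 and 2.61 in CD tumours 1 to 5. Ly6e read 3.35, 2.66, 4.41, 2.88 and 3.29 in WD tumours, against 2.85, 3.73, 3.29, 3.20 and 3.02 in CD tumours. B2m read 8.64, 7.59, 9.22, 8.60 and 8.57 in WD tumours, against 8.26, 8.66, 8.87, 8.53 and 8.11 in CD tumours. In all 3 genes WD3 was highest and WD2 lowest, with the CD tumours between. None of the 8 genes passed limma's test between the groups, and the lowest adjusted p among them was 0.258, for Arhgap45 (a difference of 0.76, with 4 of 5 WD tumours above every CD tumour).

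The rest of the interferon pathway was read from 8 lists, in which 79 genes were measured. Between the groups 0 of the 79 passed limma's test, 39 had a higher and 40 a lower mean in WD, and their median difference was -0.03. At an unadjusted p under 0.05, 3 were higher and 3 lower, whereas 15.5% of all genes tested were at that p. WD3 was the highest tumour in 27 of the 79 genes (34.2%), against 14.5% of all genes. This share was largest in the list of other antiviral genes, at 43.3% (13 of 30). It was 25.0% in MHC class I presentation and 22.2% in the receptor and JAK-STAT genes. The median r of the 79 genes with the average of the 7 genes was 0.42, against -0.01 over all genes.

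Of 5 interferon ligand genes on the array only Ifnk, the keratinocyte type I interferon, was kept, at -2.04 ± 0.64 in WD and -1.80 ± 0.86 in CD (SD, n = 5 each, limma adjusted p = 0.799), with the probe well above background in 3 of 5 WD and 4 of 5 CD arrays. The probes of Ifng and Ifnb1, named here after their values were seen, were well above background on 0 of 10 arrays. Of 9 measured receptor and JAK-STAT genes 4 were higher and 5 lower, with a median of -0.11. Stat2, a transcription factor gene of the type I interferon pathway, averaged -1.61 ± 0.51 in WD and -1.15 ± 0.37 in CD, and Il10rb, a shared receptor chain of type III interferons, -2.37 ± 0.65 in WD and -1.89 ± 0.23 in CD (limma adjusted p = 0.411 and 0.424). The Stat2 probe was well above background in 3 of 5 WD and 5 of 5 CD arrays and the Il10rb probe in 1 of 5 WD and 4 of 5 CD arrays, so their WD means rest in part on values not above background.

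Of 5 negative regulators 4 were higher and 1 lower. The phosphatase genes Ptpn6 and Ptpn11 differed by 0.34 and 0.26 (limma adjusted p = 0.487 and 0.547). Among 9 measured nucleic acid sensing genes 5 were higher and 4 lower, and the adaptor gene Myd88 and the factor gene Irf3 differed by -0.31 and 0.25 (limma adjusted p = 0.435 and 0.486). The Myd88 probe was well above background in 3 of 5 WD and 5 of 5 CD arrays.

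Of 3 other measured interferon regulatory factors 2 were higher and 1 lower. Irf5, a factor that acts downstream of Toll-like receptors, read 0.51, 0.40, 1.34, 1.23 and 1.05 in WD tumours, against 0.11, 0.38, 0.74, 0.03 and 0.16 in CD tumours. WD3, WD4 and WD5 were above every CD tumour, and all 5 WD tumours were above the CD mean. The difference was 0.62 (SE 0.22, 1.54-fold, limma unadjusted p = 0.0170, adjusted p = 0.236). Irf2, a repressor of several of these promoters, differed by 0.49 (limma adjusted p = 0.393).

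In the list of other antiviral genes 13 of 30 were higher and 17 lower, with a median of -0.06. Ifitm1, a membrane protein gene that hinders virus entry, read 4.32, 3.27, 4.50, 5.37 and 5.23 in WD tumours, against 3.51, 3.93, 3.79, 3.21 and 3.41 in CD tumours. All WD tumours except WD2 were above every CD tumour. The difference was 0.97 (SE 0.35, 1.96-fold, limma adjusted p = 0.240). Trim21, a cytosolic antibody receptor and ubiquitin ligase gene, differed by 0.60 (limma adjusted p = 0.269).

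Of 6 genes in the list of interferon gamma-induced GTPases and chemokines, which also holds adhesion and tRNA synthetase genes, 3 were higher and 3 lower. The tryptophanyl-tRNA synthetase gene Wars1 differed by -0.49 and the adhesion molecule gene Icam1 by 0.35 (limma adjusted p = 0.293 and 0.585). Of 16 genes of MHC class I presentation 8 were higher and 8 lower. The proteasome activator gene Psme1 differed by -0.48, and the class I gene RT1-A3 by 0.46 (limma adjusted p = 0.293 and 0.432).

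Markers of other cell types moved with some of the interferon response genes. All 8 measured T and NK cell marker genes, of 15 on the array, had a higher mean in WD, with a median difference of 0.95, and 0 of them passed limma's test. Their mean level was 0.70, -0.28, 1.58, 1.16 and 0.23 in WD tumours 1 to 5, against -0.29, 0.30, 0.44, -0.86 and -0.55 in CD tumours 1 to 5. WD3 was the highest, and WD1, WD3 and WD4 were above every CD tumour. The Cd3d, Cd3e and Cd3g probes were well above background on all 10 arrays and the Cd4 probe on 0. Among the other markers left out, the Klrd1 probe was well above background on 0 arrays and the Cd8a and Lck probes on 4. These single markers are named after their values were seen. All 13 measured macrophage markers also had a higher mean in WD, with levels of 1.53 to 3.63 in WD tumours and 2.07 to 2.81 in CD tumours. Fibroblast markers, higher in 9 of 9 genes, lay between 1.16 and 2.86 in WD tumours, with WD3 highest, and between 0.57 and 2.30 in CD tumours. Of the B and plasma cell markers on the array, 0 of 4 were kept. Other lists went the other way: 5 of 7 mast cell markers (median difference -1.10) and 7 of 10 mammary epithelial markers (median difference -0.24) had a lower mean in WD.

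The correlation of each of the 7 genes with 7 marker lists and with array brightness made 56 relations. Gbp2 followed the T and NK cell markers at r = 0.88 and rho = 0.94 (adjusted permutation p = 0.0545 and 0.0162 over the 56 relations), and at r = 0.90 without CD4 and WD3, the tumours farthest from the median marker level. This was the only relation of the 56 that passed, by rho and not by r. Ifit2 and Isg15 had r of 0.82 and 0.81 with the same markers (adjusted permutation p = 0.0545 for each), and 0.94 and 0.80 without CD4 and WD3. For Irf7, Mx2, Oas1a and Irf1 it was 0.52, 0.59, 0.55 and -0.22. All marker relations given here are values of the main processing. With the normexp background correction, Ifit2 had r = -0.43 with Gbp2 and -0.24 with Isg15. Gbp2 had r = 0.81 with the macrophage markers (adjusted permutation p = 0.0875) and 0.73 with the fibroblast markers (adjusted permutation p = 0.143). Isg15 had r = 0.71 and rho = 0.82 with the macrophage markers, the same rho as with the T and NK cell markers. With the fibroblast markers r was 0.66 for Isg15 and 0.64 for Oas1a. Ifit2 had r = 0.55 and rho = 0.73 with the 3 measured endothelial markers (adjusted permutation p = 0.363 and 0.167). With the mammary epithelial markers r was -0.54 for Gbp2 and -0.47 for Ifit2.

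**Figure D4:**
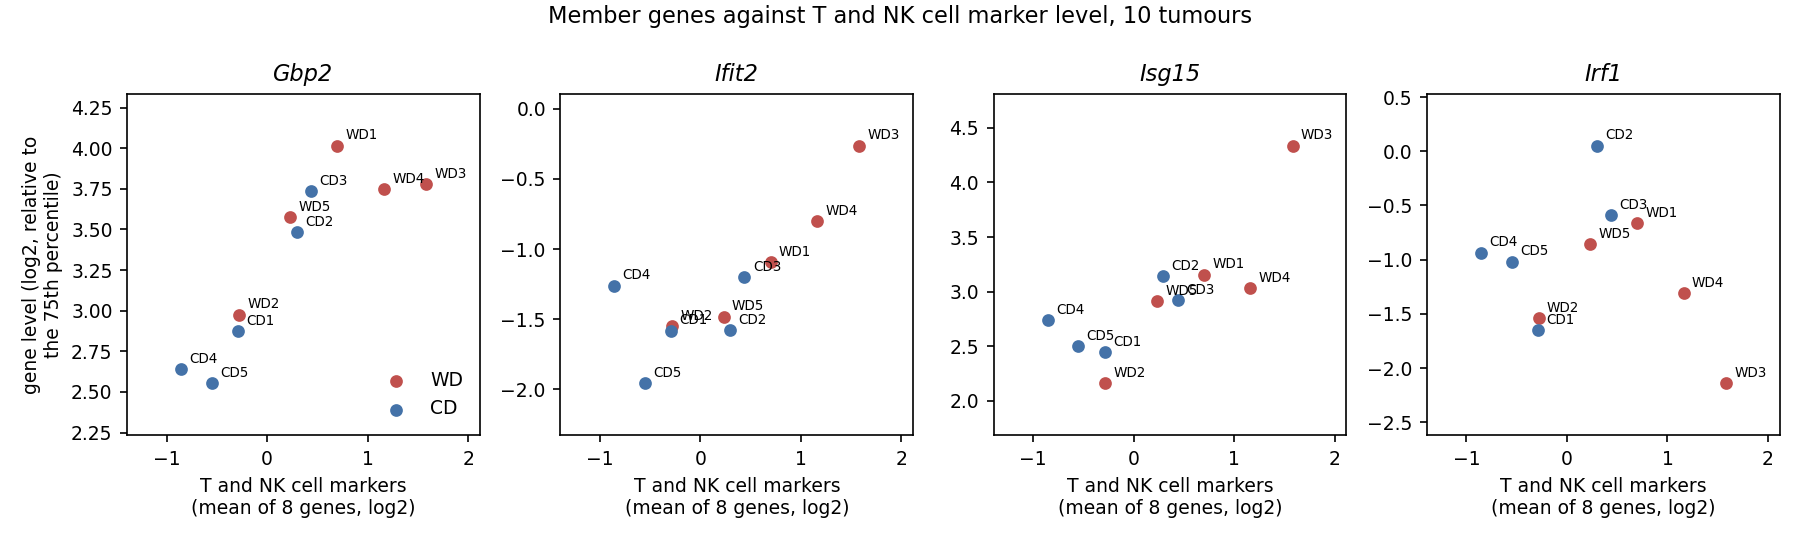
Level of Gbp2, Ifit2, Isg15 and Irf1 (vertical axes, log2 relative to the 75th percentile of the array) against the mean level of 8 T and NK cell marker genes (horizontal axes, log2) in the 5 WD and 5 CD tumours. Gbp2 climbs with the markers over tumours of both groups (r = 0.88), and Irf1 shows no such relation (r = -0.22). Isg15 has WD3 at its upper end (r = 0.81, and 0.80 without CD4 and WD3).

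Array brightness, the log2 of the array's 75th percentile, had r of -0.71 with Ifit2, -0.59 with Gbp2, -0.52 with Mx2 and -0.40 with Isg15 (adjusted permutation p = 0.143, 0.313, 0.393 and 0.491). It had r of -0.0046 with Irf7, -0.10 with Oas1a and 0.44 with Irf1. None of these passed the test. The part of brightness and of the cell type markers in the pattern of the interferon response genes was not tested. Probe sequences were not used here, so hybridization of related genes (Mx1 with Mx2, Ifit2 with Ifit3, Oas1a with its relatives) to the same probe was not tested either.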

How the data were processed

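Total RNA of 10 mammary tumours (5 WD, 5 CD) was hybridized to 1-colour (Cy3) Agilent whole rat genome arrays, 200 ng per labelling. The scanner output was made with Agilent Feature Extraction, version 11.5.1.1 per the file headers and version 15.5 per the submitters' processing notes. The deposited array files hold spot intensity values, among them processed signals with the background subtracted and not scaled between arrays, and median signals of spot and background. They also hold marks of 0 or 1 for spots well above background, saturated or outlying. The deposited series matrix holds log2 values that, judged from the values, are quantile-normalised median signals, since each column had the rank order of its own array (Spearman correlation 1). Its column medians were 6.97 to 6.98, and the tool that made it was not given in the sources used here.

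Processed signals of the 43379 measuring spots were taken to log2, the 75th percentile of each array was subtracted, outlying spots were dropped and the spots of a probe averaged. A probe was kept when well above background on at least 5 of 10 arrays (19745 of 41012 probes). RefSeq (GRCr8) named 17502 probes through their transcript identifiers. The kept probe of highest mean level stood for a gene. Groups were compared over all 16779 genes with limma 3.58.1 in R 4.3.3 (files read by data.table, version 1.17.8), with Benjamini-Hochberg adjustment and a threshold of 0.05, and differences are WD minus CD. The fit was tested on simulated data. Correlations and permutations used Python 3.11.15, scipy 1.17.1, numpy 2.4.6 and pandas 2.3.3, and plots matplotlib 3.10.9. No mean signal column was used, so normexp (offset 50) was run on the median signals in place of the mean signals planned.

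The member genes, the lists and the rules were chosen with earlier results of these data known. Named genes are the 9 members, the 2 measured genes of smallest p in each of the 8 pathway lists, and the 8 genes with a symbol whose pattern has the largest r with the average of the kept members. The list of interferon ligands had only 1 measured gene. Ifng, Ifnb1 and the single T and NK cell markers were named after their values were seen. Slide and scan could not be told apart, since each of the 3 slides had its own scan day. Slides 1, 2 and 3 held 2, 2 and 1 WD arrays and 1, 2 and 2 CD arrays. Alternatives were normexp, quantile normalization, the series matrix, no filter, a stricter filter, the mean of a gene's probes, slide, replicate number and brightness as terms, and leaving out each tumour. Leaving out each tumour for the correlations was added after the data were seen. The number of arrays limits the precision.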

Additional observations from a re-analysis of the deposited data

Results flagged for a closer look

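In each group of 5 tumours, the gap between the highest or lowest tumour and its nearest neighbour was compared with the group's whole range (critical value 0.71). Of 66 groups of named genes, 4 held a tumour that far from the rest, and chance gives about 1 in 20. Ifit3 read -0.92 in WD4, against -5.09 to -3.96 in the other WD tumours, and WD4 was the only array on which its probe was well above background. The other 3 are low values of WD2 in Cygb, Arhgap45 and Ccn5. These genes were chosen for following the average of the members, in which WD2 is the lowest tumour, so a low WD2 value is built into the choice and the chance rate says nothing about it. Cygb read 0.40 in WD2, against 2.14 to 2.61 in the other WD tumours. Arhgap45 read -0.25 in WD2, against 0.88 to 1.28 in the other WD tumours. Ccn5 read -4.04 in WD2, against -1.41 to -0.73 in the other WD tumours, and its probe was well above background on 6 of the 10 arrays.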

How the results depend on the processing

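In limma, 0 genes passed the adjusted threshold under every alternative run, with the lowest adjusted p (0.0741) when no filter on dim probes was used. At an unadjusted p under 0.05 the count was 2603 (1308 higher), and it was 499 (353 higher) with normexp, 7055 (5997 higher) without the filter and 963 (464 higher) with array brightness as a covariate. It was 2288 (859 higher) with the series matrix, 2914 with slide as a block, and 1853 to 3283 when each tumour was left out in turn. Of 131 values of single members under these alternatives, 129 kept the sign of the difference. The 2 that reversed came from leaving out WD3: leaving out each tumour gave -0.033 to 0.45 for Irf7 and -0.025 to 0.29 for Oas1a. The median over the measured members was 0.19 to 0.48 under the other alternatives and 0.07 to 0.61 when a tumour was left out. The 0.48 came from using no filter, which took in all 9 members, and the stricter filter left 5. The number of correlated pairs called was 5, against 7 under normexp and 0 to 5 when a tumour was left out. The correlation of Isg15 with Ifit2 was -0.24 under normexp, and the cause was not tested. Tumours with the same replicate number correlated at -0.02 to 0.16 in their deviations from the group means, so the numbers were not taken as pairs. With the replicate block, 0 genes passed, 2676 had an unadjusted p under 0.05, the median over the members was 0.37, and no adjusted call changed, while the unadjusted limma p of Ifit2 was 0.0255. Unadjusted p-values under 0.05 also occurred for Gbp2, Ifit2 or Mx2 with the series matrix or when 1 tumour was left out. Of the 10 arrays, Irf1 was well above background in 8 and Ifit2 in 9.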
